A study of Homo sapiens with 2 samples.

Results

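The 6 mRNAs described here encode proteins that work inside mitochondria, in the expression of the mitochondrial genome or in the metabolism of the matrix, the innermost compartment. They were taken by gene symbol from the table of 104 genes recovered with the protein SYNJ2BP, by a rule that sets no limit on their values but was written with earlier results of these data known: TRIT1, MRPS17, C17orf80, D2HGDH, PDPR and ACSS1. All 6 symbols were found, each in 1 row, so the set makes up 6 of the 104 listed genes. SYNJ2BP sits in the outer mitochondrial membrane (OMM) and binds partner proteins through a PDZ domain, a fold that recognises the ends of other proteins. In RNA immunoprecipitation and sequencing (RIP-seq), an antibody pulls the protein down from a cell lysate and the RNA that comes with it is sequenced. The table holds 1 SYNJ2BP IP library, made with a SYNJ2BP antibody, and 1 IgG library, made with nonspecific immunoglobulin as the negative control. Both came from untreated HEK293T cells, a transformed line derived from human embryonic kidney, and the labels name no knockout or transgene. SYNJ2BP itself is not a row of the table (0 of 104), and with genes chosen by the authors the identity of the cells was not checked against marker genes.

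Nearly all mitochondrial proteins are encoded in the nucleus, made on cytosolic ribosomes and imported across the mitochondrial membranes, and some of their mRNAs are translated at the OMM. The mitochondrial genome encodes a few respiratory chain subunits together with the ribosomal and transfer RNAs needed to translate them, while every protein of that translation apparatus is imported. Matrix enzymes such as those of acetyl-CoA and 2-oxoglutarate metabolism reach their place by the same route. The question put by the comparison is which of these mRNAs were recovered with SYNJ2BP beyond the nonspecific recovery with IgG.

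All 6 mRNAs had a higher FPKM with the SYNJ2BP antibody than with IgG. FPKM relates the fragments of a gene to the length of its transcript and the size of the library, so that levels of different genes can be set beside each other. The level in the SYNJ2BP IP ran from 64.4 FPKM for TRIT1 to 7.70 FPKM for ACSS1, an 8.36-fold range within the set. In IgG, D2HGDH had 0.526 FPKM, and the other 5 were listed at values under 0.01. No listed gene has a ratio of SYNJ2BP IP over IgG under 84.8, so a higher level in the SYNJ2BP IP was a property of the table and not of these 6 mRNAs. The study's methods state biological replicates for its experiments in general, and whether each library here is one of several or a pool is not stated. With 1 library a condition there is no replicate error, and no test or interval accompanies any difference below.

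**Figure D1:**
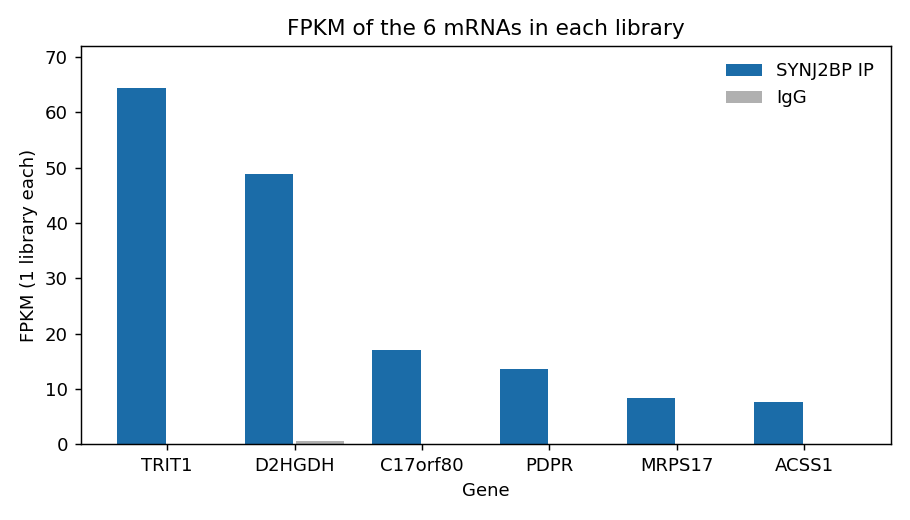
Bars give the FPKM of each of the 6 mRNAs (y axis, linear) in the SYNJ2BP IP library (blue, left) and the IgG library (grey, right), 1 library each, ordered by level in the SYNJ2BP IP. TRIT1 (64.4) and D2HGDH (48.9) stand above the other 4, which lie between 7.70 and 17.1, and only D2HGDH shows an IgG bar, at 0.526.

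Of the 3 mRNAs for mitochondrial gene expression, TRIT1 had by far the highest level. TRIT1 (ENSG00000043514) encodes the tRNA isopentenyltransferase, which adds an isopentenyl group to an adenosine next to the anticodon of certain cytosolic and mitochondrial tRNAs. Its FPKM was 64.4 in the SYNJ2BP IP, against 8.5e-08 in IgG. It ranked 9 of 104 by level in the SYNJ2BP IP, between ZNF260 (74.0 FPKM) and EVI5L (61.4 FPKM), and 6 of 104 by log2 difference. The log2 difference was 6.03, where 1 was added to the FPKM of each library, the logarithm taken and the IgG term subtracted. Adding 1 keeps values near 0 from setting the result and makes the difference of a weakly recovered mRNA smaller than the plain ratio would. Where IgG is near 0, the difference follows the SYNJ2BP IP level alone. No library of the RNA before immunoprecipitation is given, so the part that the abundance of each mRNA in the cells has in its level is not known.

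TRIT1 combined a high level in the SYNJ2BP IP with an IgG value near 0, which was rare among the 20 highest listed genes. Among the 20 genes with the highest SYNJ2BP IP FPKM, 2 were listed under 0.01 in IgG, TRIT1 and ACYP1, an acylphosphatase. Among ranks 21 to 52 the number was 20 of 32, and among ranks 53 to 104 it was 46 of 52. The only other cut was rank 52, and among ranks 1 to 52 the number was 22 of 52. Just under rank 20, IgG values were near 0 at ranks 22, 23 and 24 and readable at ranks 21 and 25. These counts describe the table, in which an IgG value near 0 became more frequent as the level in the SYNJ2BP IP declined. C17orf80 and PDPR fell in ranks 21 to 52 and MRPS17 and ACSS1 in ranks 53 to 104. D2HGDH, also among the first 20, had a readable IgG value like all of them except TRIT1 and ACYP1.

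C17orf80 (ENSG00000141219) came next among the mRNAs for mitochondrial gene expression. It is named MTNAP1 in the current RefSeq annotation and encodes a protein associated with nucleoids, the bodies that package mitochondrial DNA. Its FPKM was 17.1 in the SYNJ2BP IP, against 1.4e-72 in IgG, and its log2 difference was 4.18. It ranked 41 of 104 by level, directly under PVRL1 (17.3 FPKM) and above CTSZ (16.4 FPKM).

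MRPS17 (ENSG00000249773) encodes a protein of the small subunit of the mitochondrial ribosome. Its FPKM was 8.36 in the SYNJ2BP IP, against 5.9e-14 in IgG, with a log2 difference of 3.23 and rank 67 of 104 by level. The locus listed for MRPS17 is much longer than the gene, as given further on, and may be a merged or readthrough locus, so this value may not measure MRPS17 alone. The TRIT1 level in the SYNJ2BP IP was thus several times those of C17orf80 and MRPS17, whereas all 3 were listed near 0 in IgG.

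Of the 3 mRNAs for matrix enzymes and their regulators, D2HGDH had the highest level and was the only one with an IgG value of readable size. D2HGDH (ENSG00000180902) encodes the matrix dehydrogenase that oxidises D-2-hydroxyglutarate to 2-oxoglutarate. Its FPKM was 48.9 in the SYNJ2BP IP, against 0.526 in IgG, a log2 difference of 5.03 and a plain ratio of 92.9. This IgG value ranked 7 of 104, highest first. Among the 36 listed genes that reached 0.01 FPKM in IgG, the D2HGDH ratio ranked 30, under their median of 112.5 and near the lowest ratio of the table, 84.8.

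PDPR (ENSG00000090857) encodes the regulatory subunit of pyruvate dehydrogenase phosphatase, which returns the pyruvate dehydrogenase complex to its active form. Its FPKM was 13.6 in the SYNJ2BP IP, against 9.7e-07 in IgG, with a log2 difference of 3.86. ACSS1 (ENSG00000154930) encodes the mitochondrial enzyme that joins acetate to coenzyme A. Its FPKM was 7.70 in the SYNJ2BP IP, against 1.2e-05 in IgG, with a log2 difference of 3.12, the lowest of the 6. PDPR ranked 47 and ACSS1 ranked 69 of 104 by level in the SYNJ2BP IP.

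Ordered by level in the SYNJ2BP IP, the sequence was TRIT1, D2HGDH, C17orf80, PDPR, MRPS17 and ACSS1. The widest step was between D2HGDH and C17orf80, a factor of 2.86. TRIT1 exceeded D2HGDH by a factor of 1.32, C17orf80 exceeded PDPR by 1.26, PDPR exceeded MRPS17 by 1.62 and MRPS17 exceeded ACSS1 by 1.09. Whether any of these neighbours differ beyond replicate error cannot be said from 1 library.

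**Figure D2:**
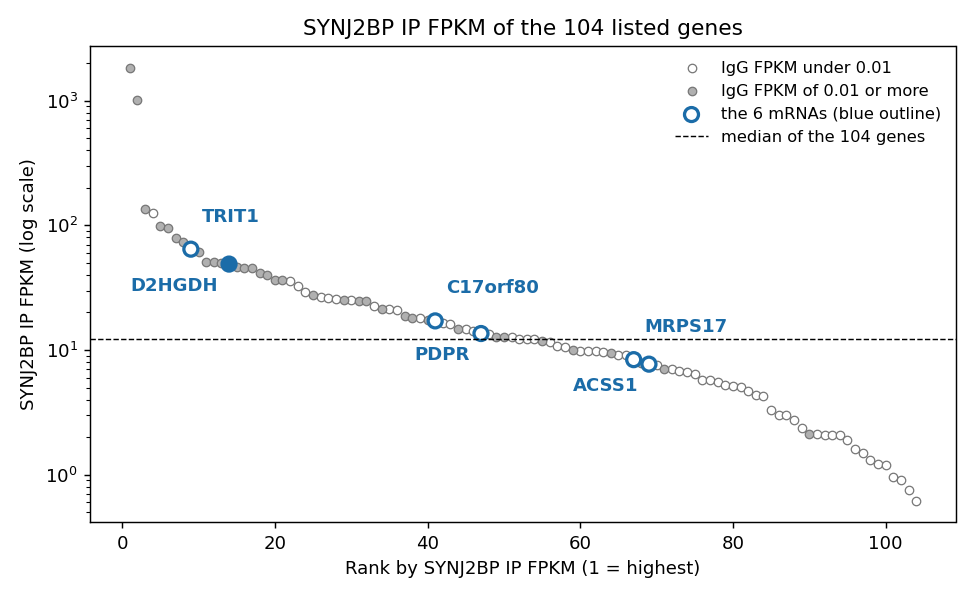
Each point is 1 of the 104 listed genes, placed by its rank (x axis) and its FPKM in the SYNJ2BP IP (y axis, log scale), filled in grey, or in blue for D2HGDH, where the IgG FPKM was at least 0.01. The 6 mRNAs (blue outlines) lie at ranks 9, 14, 41, 47, 67 and 69, with TRIT1 an open point among filled ones, and the dashed line marks the median of the 104 genes, 12.2.

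The IgG values of the 5 mRNAs other than D2HGDH have an order but no readable size. Had ACSS1, at 1.2e-05 the highest of the 5, been represented by 1 fragment on a transcript of 10 kb, the IgG library would have needed 8.18e+09 mapped fragments, and for PDPR 1.03e+11. The plain ratios of these 5 mRNAs are therefore not given. Of the 6 mRNAs, 5 were listed under 0.01 in IgG, against 63 of the 98 other listed genes and 65.4% of the whole table. With 6 genes this share was not set apart from that of the table.

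As a group the 6 mRNAs were higher on the scale of FPKM + 1 by at least 4-fold in 6 of 6 cases, against 81 of the 98 other genes and 83.7% of all 104. The lowest of them, ACSS1, was 8.70-fold higher and TRIT1 65.4-fold higher on that scale. Their median log2 difference was 4.02, against 3.68 for the 98 other genes. Their median level in the SYNJ2BP IP was 15.3 FPKM, against 12.2 FPKM for the others. The median of the list was exceeded by 4 of the 6 (TRIT1, D2HGDH, C17orf80 and PDPR), where 50.0% of the table lies above it by definition. Together the 6 mRNAs held 3.20% of all SYNJ2BP IP FPKM in the list. The 6 mRNAs lay within the range of the other genes in both libraries.

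The table holds 8 further genes of mitochondrial proteins, with roles in the respiratory chain, ATP synthase, fission, lipid transfer and apoptosis. The 6 mRNAs lay in a narrower band than these, from 7.70 to 64.4 FPKM in the SYNJ2BP IP, against 1.22 to 99.5 FPKM for the other 8. Their median was 15.3 FPKM, against 7.13 FPKM. The highest of the 8, NDUFS7, a complex I subunit, was above TRIT1, and the lowest, SLMO1, a relative of the lipid transfer protein PRELID1, was under ACSS1. At least 4-fold higher levels on the scale of FPKM + 1, a call that follows the SYNJ2BP IP level, were found for 6 of the 6 and 6 of the 8. An IgG value under 0.01 was listed for 5 of the 6 and 5 of the 8. Both are small groups of genes from the same 2 libraries, and the difference between their medians was not tested.

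The table also marks 11 genes that the authors followed up by crosslinking immunoprecipitation (CLIP). They picked these genes for a link to mitochondria, so the spread of the mark over gene groups was fixed by that choice and is no result. The mark was set for 4 of the 6 mRNAs (TRIT1, MRPS17, PDPR and ACSS1), for 6 of the 8 other mitochondrial genes and for 1 of the remaining 90, TMEM50A, which the authors count among their mitochondrial picks. D2HGDH and C17orf80, 2nd and 3rd of the set by level in the SYNJ2BP IP, carried no mark.

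The log2 differences depended on the amount added to the FPKM, and between 0.01 and 1 D2HGDH moved least. With 0.01 added, its difference was 6.51, against 5.03 with 1 added. For TRIT1 the same change moved the difference to 12.65 from 6.03, and for ACSS1 to 9.59 from 3.12. D2HGDH was thus 2nd of the 6 with 1 added, 5th with 0.1 added and 6th with 0.01 added. TRIT1 was 1st under every amount tried, 0.01, 0.1, 1 and 10. With the highest SYNJ2BP IP FPKM of the 6 and an IgG value near 0, it could not lose that place under these amounts. With 10 added, only TRIT1, at 2.89, and D2HGDH, at 2.48, remained above the log2 value that marks 4-fold, and the other 4 lay between 0.82 and 1.44.

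**Figure D3:**
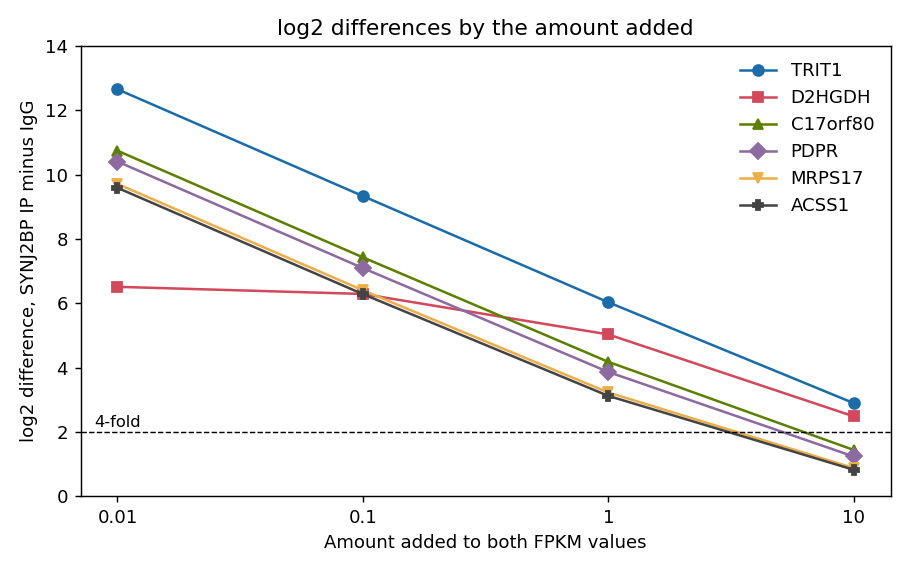
Lines follow the log2 difference between SYNJ2BP IP and IgG (y axis) of each of the 6 mRNAs as 0.01, 0.1, 1 or 10 was added to both FPKM values (x axis), and the dashed line marks 4-fold. D2HGDH stays between 6.51 and 5.03 from 0.01 to 1 while the lines of the other 5 drop steadily, so that its line crosses 4 of them.

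Listed genes most like each member were found as the nearest in both log2(FPKM + 1) values, over 2 libraries. For PDPR the nearest was TMEM50A, a transmembrane protein gene, with 13.5 FPKM in the SYNJ2BP IP and near 0 in IgG, at a distance of 0.00054. For ACSS1 it was PET117, a cytochrome c oxidase assembly factor, with 7.63 FPKM in the SYNJ2BP IP, followed by GPR98 with 7.0 FPKM. For C17orf80 it was CTSZ, a cathepsin, followed by SULT4A1, a sulfotransferase, with 17.9 FPKM. For MRPS17 it was RP6-24A23.6 with 9.09 FPKM, followed by TNS3, a tensin, with 9.16 FPKM. These nearest genes of PDPR, ACSS1, C17orf80 and MRPS17 had IgG values under 0.01, except GPR98, at 0.0125, so that for them the match was one of level in the SYNJ2BP IP.

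The nearest genes of D2HGDH were alike in both libraries. C14orf80 had 51.0 FPKM in the SYNJ2BP IP and 0.595 FPKM in IgG, and EGLN1, the oxygen-sensing prolyl hydroxylase, had 50.1 FPKM in the SYNJ2BP IP and 0.441 FPKM in IgG. TRIT1 had the poorest match of the 6. Its nearest genes, ZNF260 and DIABLO, lay at distances of 0.39 and 0.41, and both had readable IgG values of 0.262 and 0.211 FPKM. For the other 5 mRNAs the nearest gene lay within 0.11.

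Lists of genes written around the 6 mRNAs added no further row of the table. Lists of genes from these pathways held 196 genes in all, of which 6 were listed, the members themselves. MRPS17 was the 1 listed gene of 32 for the small subunit of the mitochondrial ribosome, and none of 50 for the large subunit was listed. TRIT1 was 1 of 20 for mitochondrial tRNA modification, and 0 of 22 mitochondrial aminoacyl-tRNA synthetases were listed. C17orf80 was 1 of 26 for nucleoids, mitochondrial DNA maintenance and transcription. D2HGDH was 1 of 20 for 2-hydroxyglutarate and the TCA cycle, PDPR 1 of 14 for the pyruvate dehydrogenase complex and its regulators, and ACSS1 1 of 12 for acetate and acyl-CoA synthetases. No level is known here for the 190 genes that are not rows of the table, such as the catalytic phosphatase subunits PDP1 and PDP2 or the ACSS1 relatives ACSS2 and ACSS3. The lists were written with the rows of the table known.

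For 3 of the 6 mRNAs the listed locus spans about the length of the gene, and for the others it is longer. Loci are on hg19 as the table gives them, and gene lengths are those of RefSeq on GRCh38.p14, a later build used here for names, neighbours and lengths. TRIT1 is listed at chr1:40306705-40349183, 42.5 kb, against a gene of 45.4 kb. D2HGDH is listed at chr2:242673993-242708231, 34.2 kb, against 34.2 kb, and ACSS1 at chr20:24986867-25039616, 52.8 kb, against 51.9 kb. TRIT1 overlaps the non-coding gene MYCL-AS1 in RefSeq, and PDPR overlaps LOC400541. Whether counting used the strand of the reads is not stated, so reads of such pairs cannot be told apart. All 6 are protein-coding genes in RefSeq, and none of their loci overlaps that of another listed gene.

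MRPS17 is listed at chr7:55954969-56067874, 112.9 kb, which is 24.4 times its RefSeq length of 4.62 kb. In RefSeq the stretch from the start of its neighbour ZNF713, a zinc finger gene, to the end of its neighbour NIPSNAP2, a mitochondrial protein gene, measures 112.7 kb. PDPR is listed at chr16:70147528-70221264, 73.7 kb, and its gene measures 49.8 kb. The stretch from the start of PDPR to the end of its neighbour CLEC18C, a lectin gene, measures 73.3 kb. C17orf80 is listed at chr17:71161115-71258491, 97.4 kb, which is 5.89 times its length of 16.5 kb, and in RefSeq it overlaps CPSF4L and lies next to VCF1. Whether fragments of these neighbours entered the 3 values was not tested, and no annotation of hg19 was used to match symbol and identifier.

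**Figure D4:**
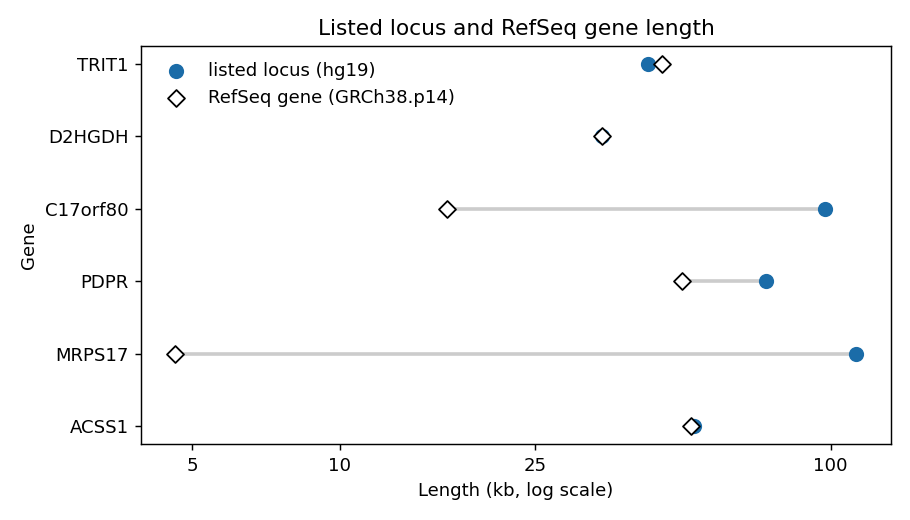
For each of the 6 mRNAs (rows), the filled circle gives the length of the listed hg19 locus and the open diamond the length of the RefSeq gene on GRCh38.p14 (x axis, kb, log scale). The lengths nearly coincide for TRIT1, D2HGDH and ACSS1 and lie far apart for MRPS17 (112.9 and 4.62 kb) and C17orf80 (97.4 and 16.5 kb).

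Copies of a gene elsewhere in the genome are a further limit for 3 of the 6. RefSeq names 6 pseudogenes after MRPS17, 1 after C17orf80 and 1 after PDPR, PDPR2P, which lies on chromosome 16 like PDPR itself, and none after TRIT1, D2HGDH or ACSS1. How fragments that match both a gene and a copy were assigned is not stated, so the levels of MRPS17, C17orf80 and PDPR are uncertain to that extent.

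The promoters of the genes were searched for letters known from nuclear genes of mitochondrial proteins, as a sequence feature that was not used to choose the set. RIP-seq measures mRNA and not promoter activity. RefSeq promoter windows on GRCh38.p14, from 250 bases before to 50 after a start, were at hand for 5 of the 6 genes as 8 windows, all except TRIT1. On either strand, the core of the site of nuclear respiratory factor 1 (NRF1), GCGCANGCG, was found in 1 of the 8 windows, that of D2HGDH, against 7.52% of all 35116 windows. The ETS core CCGGAAG, as bound by GABP, was found in 1 window, of C17orf80, against 10.3%, and the YY1 core ATGGCGGC in 1 window, of ACSS1, against 3.0%. The GC box GGGCGG was found in 5 of the 8 windows, at least 1 for each of the 5 genes, against 45.0% of all windows. Some genes have more than 1 window, so the count by gene is not comparable with this share. The GC content was 78.3% for D2HGDH and 75.0%, 71.0% and 70.0% for 1 window each of ACSS1, C17orf80 and PDPR. It lay between 43.3% and 58.7% for the remaining windows, against a median of 58.7% for all windows. Whether GC content accounts for the matches was not tested. None of these motifs contains another, and a match is one of letters that says nothing on binding. The following stretches of 30 bases, 5′ to 3′ on the strand of the gene, show the NRF1 match of D2HGDH (chr2:241734595-241734624), the ETS match of C17orf80, read on the opposite strand (chr17:73232267-73232296), and a GC box of MRPS17 (chr7:55951767-55951796), with the matched letters in capitals.
D2HGDH: agccgtcaatGCGCAGGCGcggcgtcgccc
C17orf80: taccaccactaCTTCCGGcgtctgctccgc
MRPS17: ttaagggagagtGGGCGGggtcctgccttt
The NRF1 match of D2HGDH begins 25 bases before the start. No motif other than the GC box was found in more than 1 of these genes.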

How the data were processed

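RIP-seq was performed on HEK293T cells with a SYNJ2BP antibody and with IgG, 1 library each. rRNA-depleted RNA was made into stranded libraries and read as 150 bp paired ends. Per the submitters' processing notes, the tools were Cufflinks, Cuffdiff (2.2.1), HISAT2 (2.0.4) and cutadapt (1.9.3), and the build was hg19. Their roles, the annotation and the rule for choosing the 104 genes are not stated. The deposited values are FPKM, scaled by the authors to transcript length and mapped reads. The authors' table also holds their fold change, not used here, and, per the file headers, another column that is 1 for genes tested by CLIP and 0 otherwise. Library depth is unknown, and intervals for counting error were not formed.

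For log2 differences, 1 was added to each FPKM, with 4-fold as the limit. IgG values under 0.01 were called near 0, and ratios were read only above that. The members, gene lists and alternatives (other amounts added, fold and IgG limits, filters) were chosen with earlier results of these data known. Named genes are the 6 members, their 2 nearest listed genes, their neighbours in rank, examples of the 8 other mitochondrial genes and listed genes of the pathway lists. ACYP1, the rank neighbours, the genomic neighbours and the unlisted examples were named after the values were seen. Python 3.11.15, numpy 2.4.6, pandas 2.3.3 and matplotlib 3.10.9 were used. The code for the log2 difference was run on simulated data that included IgG values near 0. Those data were built with the same formula, so the run checks the code and not the measure.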

Additional observations from a re-analysis of the deposited data

How the results depend on the processing

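No paired analysis was possible because the SYNJ2BP IP and IgG groups hold 1 library each, and for the same reason no library could be left out. The count of members at least 4-fold higher, 6 of 6, was also 6 at a fold limit of 8. It was 2 with 10 added, since a larger amount lowers every difference by construction. With 0.1 or 0.01 added, at a fold limit of 2 and with genes under 5 FPKM in the SYNJ2BP IP left out, it was 6. Those settings could not lower the count, since smaller amounts raise every difference, a lower limit is easier to pass and no member was under 5 FPKM. The median log2 difference of the 6 mRNAs, 4.02, was 6.75 with 0.1 added, 10.06 with 0.01, 1.34 with 10 and 3.86 without D2HGDH. D2HGDH, 2nd of the 6 by log2 difference, was 5th with 0.1 added and 6th with 0.01. The number listed near 0 in IgG, 5, was 5 at IgG limits of 0.001 and 0.1 and 6 at a limit of 1. The number above the median SYNJ2BP IP FPKM, 4, was 4 without clone-based and readthrough names or without overlapping loci, and 2 where the median was taken over the 81 genes that reached 5 FPKM in the SYNJ2BP IP, which raised it to the level of C17orf80, 17.1. What depth limits was not assessed, since it is unknown.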
